A study of Mus musculus with 4 samples.

Results

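The comparison set the library labelled leptotene/zygotene spermatocytes (L/ZSC) against the library labelled spermatogonia (SG) and asked how alike their transcriptomes were and which genes set them apart. The genes compared were those listed at 5 FPKM or more in either column, where FPKM is a read density scaled by transcript length and by the size of the library. Small RNA genes, recognised by symbols starting with Snord, Snora, Scarna, Mir, Rnu, Rn45s, Rn7 or Rmrp, were left out. This gave 9688 of the 24426 genes in the table.

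RNA was sequenced from testis cells of untreated C57BL/6 mice, which had been depleted of Sertoli cells by adhesion to a dish and then fractionated by sedimentation at unit gravity (STA-PUT). By their labels and the paper's methods, the L/ZSC library came from 5 pooled mice aged 17 days and the SG library from 30 pooled mice aged 7 days. Libraries of preleptotene (PlpSC) and pachytene (PaSC) spermatocytes, also from 5 mice aged 17 days and possibly the same animals as L/ZSC, completed the series of 4. Each stage had 1 library, so ratios between columns have no replicate check and no test or error can be given. Age and stage, both taken from the labels, cannot be told apart.

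Spermatogonia multiply by mitosis, and in leptotene and zygotene their descendants build chromosome axes, make DNA double-strand breaks and pair their homologues. In pachytene the X and Y chromosomes are transcriptionally silenced in the sex body while testis-specific metabolic and sperm tail genes become active. After meiosis, spermatids replace histones with transition proteins and then with protamines, and throughout this process Sertoli cells, the somatic nurse cells of the tubule, enclose the germ cells.

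The names of both libraries are used here as labels only. The ages and pool sizes given above follow from the labels and are no surer than they are. In the column labelled SG, the values of long noncoding RNAs (lncRNAs) were proportional to those the study lists for PaSC, whereas the column labelled L/ZSC was proportional to no stage in that list. The paper reports that it checked the purity of each fraction by cell size and morphology and by marker genes and proteins. In the deposited columns, however, marker genes also went against the label SG. Gfra1, a receptor subunit of spermatogonial stem cells, had 0.669 FPKM in the library labelled L/ZSC against 1.03 FPKM in that labelled SG, below the 3.79 FPKM of the library labelled PlpSC. Zbtb16, a transcription factor of undifferentiated spermatogonia, was at 1.60 FPKM in labelled L/ZSC against 4.15 FPKM in labelled SG, with 10.0 FPKM in labelled PlpSC. Neither gene was thus highest in labelled SG. Ldhc, a lactate dehydrogenase gene that marks pachytene and later cells, stood at 5468 FPKM in labelled L/ZSC against 3409 FPKM in labelled SG. For leptotene and zygotene the recombinase gene Dmc1 is a usual marker, and it was at 3.54 FPKM in labelled L/ZSC against 11.6 FPKM in labelled SG, far below the 98.4 FPKM of labelled PlpSC.

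The 2 libraries were close to each other for most genes. Of the 9688 genes, 6288 (64.9%) were within 1.5-fold and 7806 (80.6%) within 2-fold. Over 1.5-fold, 802 genes (8.28%) were higher and 2598 (26.8%) lower in labelled L/ZSC than in labelled SG, and these percentages are the background for every count given below. How the columns were scaled to each other is unknown, and the count of higher genes was 442 when both were scaled to the same sum without Rpph1 and 1095 when they were scaled by the median ratio. On the scale log2((labelled L/ZSC + 0.5)/(labelled SG + 0.5)), called the log2 ratio here, the median was -0.07 with quartiles of -0.62 and 0.27. More than 4-fold apart were 117 genes higher and 238 lower. As a description across 9688 genes, which are not replicates, Pearson's r of the log2 values was 0.909 and Spearman's rho 0.914.

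By correlation, no other pair among the 4 libraries was as close. The library labelled PaSC against labelled L/ZSC had an r of 0.754, labelled PlpSC against labelled SG 0.689, and the remaining 3 pairs between 0.299 and 0.549, each over the 9596 to 11436 genes at 5 FPKM or more in either of its columns. For most genes, however, labelled PaSC was about as close to labelled L/ZSC as labelled L/ZSC was to labelled SG. Within 1.5-fold were 60.3% and 64.9% of genes in the same order. The quartiles on the log2 scale were -0.46 and 0.40 for the first pair and -0.62 and 0.27 for the second. In 7035 genes (72.6%) the value of labelled SG lay between those of labelled PlpSC and labelled L/ZSC. The plot of the 2 columns shows the narrow band of most genes and the groups that leave it.

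**Figure D1:**
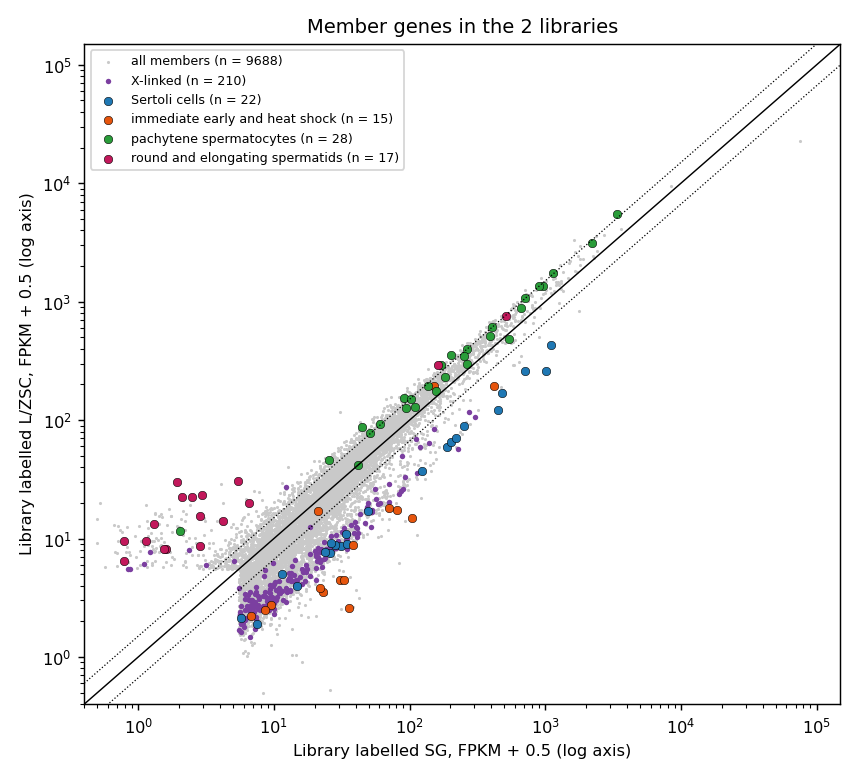
FPKM + 0.5 of each of the 9688 genes in the library labelled SG (horizontal, log axis) and labelled L/ZSC (vertical, log axis), with the solid line at equal values and dotted lines at 1.5-fold. Most genes follow the line, and most spermatid genes lie above it at the low end of labelled SG. Sertoli genes and most immediate early and X-linked genes lie below it.

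The threshold of 5 FPKM in either column shapes these counts, because a gene that passed in 1 column alone had to be lower in the other. Both columns reached 5 FPKM for 8067 genes, of which 578 (7.16%) were higher and 1387 (17.2%) lower in labelled L/ZSC, with a median log2 ratio of 0.00. A further 1327 genes passed in labelled SG alone and 1211 of these were lower, while 294 passed in labelled L/ZSC alone and 224 of these were higher. Sorted by the higher of the 2 values, 50% of genes at 5 to 10 FPKM were lower in labelled L/ZSC, against 7.12% of those at 100 FPKM or more, where 15.3% were higher. Just inside the threshold stood Dip2c at 1.92 FPKM in labelled L/ZSC against 5.004 FPKM in labelled SG, and just outside it Slc35e1 at 2.10 FPKM in labelled L/ZSC against 4.99 FPKM in labelled SG.

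The most abundant transcripts were largely shared, with 8 genes among the 10 highest of both columns. Rpph1, the RNA component of RNase P, led both with 22525 FPKM in labelled L/ZSC against 75277 FPKM in labelled SG, which was 3.54% and 12% of the summed FPKM of all genes compared. Next came the testis-specific histone gene Hist1h2ba at 9465 FPKM in labelled L/ZSC against 8494 FPKM in labelled SG, within 1.5-fold. Hist1h1t, the testis-specific linker histone, had 3143 FPKM in labelled L/ZSC against 2227 FPKM in labelled SG. Both histone genes were thus within 1.5-fold, whereas Tuba3b was just over it. The tubulin gene Tuba3b had 3603 FPKM in labelled L/ZSC against 2355 FPKM in labelled SG. Of the genes among the 10 highest in labelled L/ZSC alone, the lncRNA Rbakdn, the subject of the study, reached 2938 FPKM, against 1803 FPKM in labelled SG, 1.63-fold higher. Rbakdn was at 170.6 FPKM in labelled PlpSC and at 2818 FPKM in labelled PaSC. The paper places the onset of Rbakdn in PlpSC, with a gradual rise through meiosis. By their labels the columns do not follow that order, since labelled SG stood above labelled PlpSC and labelled L/ZSC slightly above labelled PaSC.

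Many of the genes furthest above the line are known from haploid spermatids. Among the 25 highest log2 ratios, 23 genes had their highest value of all 4 libraries in labelled PaSC. Tnp1, which encodes transition protein 1, was at 29.5 FPKM in labelled L/ZSC against 1.44 FPKM in labelled SG, a log2 ratio of 3.95, with 4407 FPKM in labelled PaSC. Prm2, a protamine gene, was at 9.07 FPKM in labelled L/ZSC against 0.281 FPKM in labelled SG, with 1914 FPKM in labelled PaSC. Oaz3, the antizyme of spermatids, was at 21.8 FPKM in labelled L/ZSC against 1.59 FPKM in labelled SG. The same end held the acrosomal genes Spaca3 and Spaca4, the fibrous sheath gene Ropn1, the RING finger gene Rnf151 and the perinuclear theca genes Cypt4 and Cypt12, the last at 18.7 FPKM in labelled L/ZSC against 0.647 FPKM in labelled SG. The 2 lncRNAs 1700041C23Rik and 1700101O22Rik were listed at 0 in labelled SG and at 14.0 and 8.59 FPKM in labelled L/ZSC, so no fold is given.

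Over the whole list of 31 spermatid genes, 29 were in the table and 27 of those were higher in labelled L/ZSC by some amount. Only 17 reached 5 FPKM, 14 of them in labelled L/ZSC alone, so that the 16 genes over 1.5-fold and the median log2 ratio of 2.49 describe mostly genes that passed because they were high there. Their levels were low next to those of labelled PaSC, where 28 of the 29 had their highest value. In labelled L/ZSC the members stood at a median of 3.88% of their labelled PaSC value, and Tnp1, Prm1 and Prm2 at under 1%. Summed over the 29 genes, FPKM was 1307 in labelled L/ZSC against 710.3 in labelled SG, with 17385 in labelled PaSC. Cox8c and Dbil5 carried most of it, and without them the other 27 genes summed to 255.8 in labelled L/ZSC against 36.0 in labelled SG, with 15649 in labelled PaSC. In bulk RNA, more cells of a type and more RNA per cell cannot be told apart.

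The opposite end included genes known to answer stress or inflammatory signals, which are named here, beside others such as Eif3j2, Gm21586 and Shisa8. Of the 25 lowest log2 ratios, 19 genes had their highest value in labelled SG and 5 in labelled PlpSC. Maff, a small bZIP factor, was at 0.398 FPKM in labelled L/ZSC against 15.5 FPKM in labelled SG, a log2 ratio of -4.16. Atf3, a stress-induced transcription factor, was at 2.07 FPKM in labelled L/ZSC against 35.4 FPKM in labelled SG. Cyr61, a matricellular growth factor target, was at 2.17 FPKM in labelled L/ZSC against 37.7 FPKM in labelled SG. All 3 were also low in labelled PaSC, where Maff was at 3.02, Atf3 at 2.06 and Cyr61 at 3.93 FPKM. The NF-κB inhibitor gene Nfkbia, itself an NF-κB target, was at 10.2 FPKM in labelled L/ZSC against 113 FPKM in labelled SG. The chemokine gene Cxcl1 had 5.77 FPKM in labelled L/ZSC against 82.4 FPKM in labelled SG, and the interferon regulatory factor gene Irf1 had 2.62 FPKM in labelled L/ZSC against 42.2 FPKM in labelled SG. Ier3, Nfkbiz, Nfil3, Klf6, Gadd45a, Sgk1 and Rhob were among the rest.

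The list of 15 immediate early and heat shock genes lay at this end too. All 15 reached 5 FPKM, 8 of them in labelled SG alone, and 13 were lower in labelled L/ZSC with a median log2 ratio of -2.12. Junb, a subunit of the AP-1 transcription factor, was at 14.6 FPKM in labelled L/ZSC against 103 FPKM in labelled SG. Fos, its partner, was at 17.0 FPKM in labelled L/ZSC against 79.9 FPKM in labelled SG, and 325 FPKM in labelled PlpSC. Hspa8, the constitutive heat shock cognate, was 2.14-fold lower, at 194 FPKM in labelled L/ZSC against 415 FPKM in labelled SG. The 2 members within 1.5-fold were the chaperone genes Hsph1 and Dnajb1, and Dnajb1 was at 195 FPKM in labelled L/ZSC against 152 FPKM in labelled SG. Among the 15 genes, 11 peaked in labelled PlpSC and 3 in labelled SG, which places labelled L/ZSC with labelled PaSC at the low side, as the plot of levels in the 4 libraries shows for Junb, Atf3, Btg2 and Fosb.

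**Figure D2:**
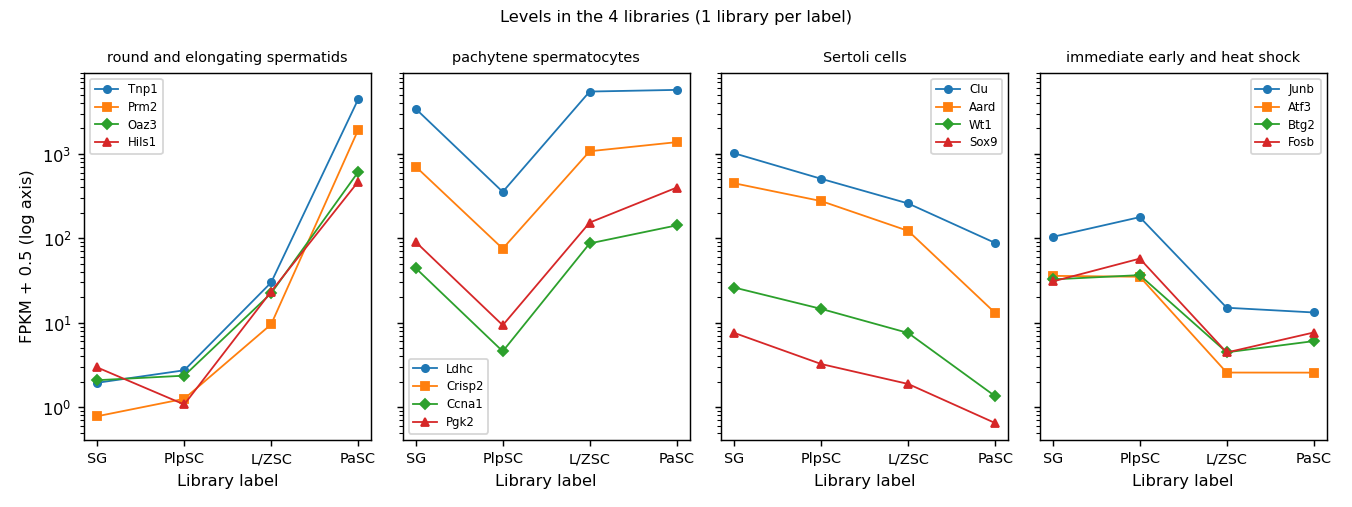
FPKM + 0.5 (log axis) of 4 genes from each of 4 lists in the 4 libraries, in stage order by label, 1 library each, with genes chosen for display after their values were seen. Spermatid genes are low in all libraries but labelled PaSC, pachytene genes are high in all but labelled PlpSC, and Sertoli and immediate early genes are lower in labelled L/ZSC than in labelled SG.

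The upper end also differed from all genes in the sequence of its promoters, a feature the ranking did not use. The lower end was close to all genes. RefSeq windows from 250 bases before to 50 bases after the most upstream gene start (GRCm38.p6) were found for 7905 of the genes. Shown here are the 250 bases before the start of the 2 spermatid genes with the highest log2 ratios in their list and of the 2 immediate early genes with the lowest, in the gene's orientation, with each CG dinucleotide in capitals. Tnp1 lies on the minus strand (chr1:73015900-73016149), as do Prm2 (chr16:10792106-10792355), Atf3 (chr1:191183334-191183583) and Btg2 (chr1:134079156-134079405).
Tnp1: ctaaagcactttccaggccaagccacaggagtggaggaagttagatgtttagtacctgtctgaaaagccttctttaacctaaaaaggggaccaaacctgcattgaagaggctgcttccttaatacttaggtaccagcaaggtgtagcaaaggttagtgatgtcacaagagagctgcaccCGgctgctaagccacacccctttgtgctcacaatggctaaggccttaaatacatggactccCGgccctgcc
Prm2: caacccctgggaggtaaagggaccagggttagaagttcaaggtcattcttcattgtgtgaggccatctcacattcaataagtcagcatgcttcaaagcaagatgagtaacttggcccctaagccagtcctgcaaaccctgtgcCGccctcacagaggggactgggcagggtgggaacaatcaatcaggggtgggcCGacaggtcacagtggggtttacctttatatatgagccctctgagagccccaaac
Atf3: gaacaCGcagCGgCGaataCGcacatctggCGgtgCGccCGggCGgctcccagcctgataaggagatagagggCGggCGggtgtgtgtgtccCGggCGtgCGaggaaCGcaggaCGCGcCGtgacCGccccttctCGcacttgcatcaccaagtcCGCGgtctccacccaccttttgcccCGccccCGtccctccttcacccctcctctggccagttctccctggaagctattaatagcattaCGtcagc
Btg2: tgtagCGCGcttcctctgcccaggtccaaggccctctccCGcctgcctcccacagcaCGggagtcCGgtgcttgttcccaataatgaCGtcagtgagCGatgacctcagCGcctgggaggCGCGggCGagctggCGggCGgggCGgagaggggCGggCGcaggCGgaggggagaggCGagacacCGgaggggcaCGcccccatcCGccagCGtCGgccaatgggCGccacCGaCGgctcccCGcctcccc
In these stretches Tnp1 and Prm2 each had 2 CG dinucleotides, Atf3 had 24 and Btg2 had 27.

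The same held across the ends of the ranking. Genes with a log2 ratio above 2 had a median of 0.798 FPKM in labelled SG. Most of the upper end thus passed 5 FPKM in labelled L/ZSC alone and was picked in part by that threshold. Among the 100 genes with the highest log2 ratios, 83 had a promoter window, with a median of 3 CG dinucleotides in 300 bases, and 89.2% of these windows had fewer than 10. Among the 100 genes with the lowest ratios, 82 had a window, with a median of 23.5, and 13.4% had fewer than 10, against a median of 22 and 13.5% over all 7905 windows. By log2 ratio, the median was 3 for genes above 2, 6 between 1 and 2, 16 between 0.5 and 1, and 20 to 24 in every lower interval. Medians under 10 were seen only in the intervals above 1, and the 193 X-linked windows had a median of 14.

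**Figure D3:**
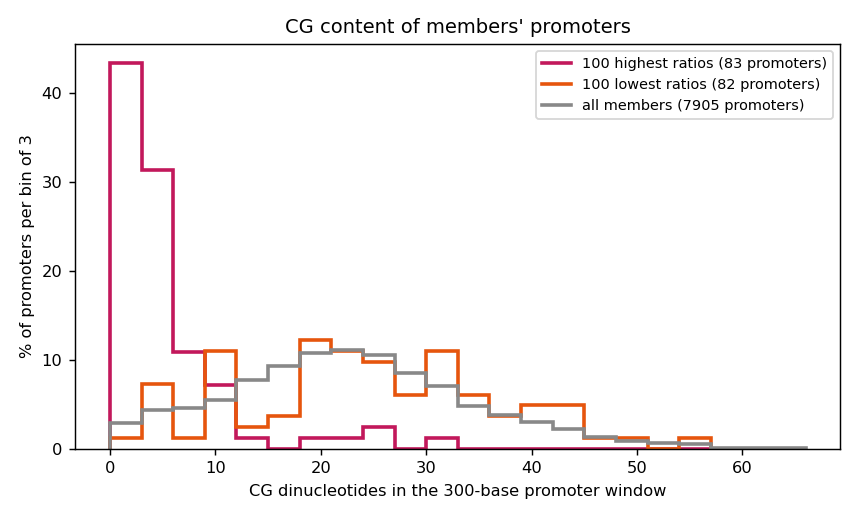
Number of CG dinucleotides in the 300-base promoter window (horizontal) and share of promoters in each bin of 3 (vertical) for the 100 highest log2 ratios (83 promoters), the 100 lowest (82 promoters) and all genes compared (7905 promoters). The highest ratios pile up below 10 CG dinucleotides, with a median of 3, while the lowest ratios have a median of 23.5 and all genes one of 22.

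Short motifs were found at both ends. The cAMP response element TGACGTCA was in 2.41% of windows at the upper end and 6.1% at the lower end, and in 3.9% of all windows, searched on both strands. The MYB motif AACNGTT was in 3.61% of windows at the upper end and 3.66% at the lower end, and in 3.49% of all. The E-box CAGCTG was in 16.9% at the upper end and 18.3% at the lower end, and in 13.3% of all, and the GATA motif AGATAA in 12%, 4.88% and 5.86% in the same order. With 83 and 82 windows these shares rest on 2 to 15 genes each and are given as a description. Of the 4 promoters printed, the window of Btg2 held TGACGTCA.

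Sertoli cell genes were lower throughout. All 25 on the list were lower in labelled L/ZSC, 22 reached 5 FPKM, and all 22, including the 18 that reached it in both columns, were lower by more than 1.5-fold, with log2 ratios between -2.01 and -1.19 and a median of -1.64. Clu, the secreted chaperone clusterin, was at 258 FPKM in labelled L/ZSC against 1014 FPKM in labelled SG. The beta-defensin gene Defb19 was at 432 FPKM in labelled L/ZSC against 1107 FPKM in labelled SG. Cst12, a cystatin gene, was at 259 FPKM in labelled L/ZSC against 706 FPKM in labelled SG. These 3 genes were the most abundant of the list in both libraries. Sox9, the factor that directs Sertoli fate, had the lowest log2 ratio of the list, with 1.38 FPKM in labelled L/ZSC against 7.07 FPKM in labelled SG. Summed over the 25 genes, FPKM was 1646 in labelled L/ZSC against 5034 in labelled SG, with 3068 in labelled PlpSC and 403.5 in labelled PaSC, so Sertoli transcripts were present in both libraries, and labelled SG held the peak of 21 of the 25.

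Genes of other somatic cells of the testis were low in both columns. The 5 Leydig cell genes at 5 FPKM or more were divided, with Insl3, the insulin-like hormone of these cells, at 31.6 FPKM in labelled L/ZSC against 17.7 FPKM in labelled SG, and Nr5a1, the steroidogenic factor that Sertoli cells also express, at 6.38 FPKM in labelled L/ZSC against 23.0 FPKM in labelled SG. Summed FPKM was 26.1 in labelled L/ZSC against 46.3 in labelled SG for 11 fibroblast genes and 69.4 in labelled L/ZSC against 77.9 in labelled SG for 11 Leydig genes. For 13 macrophage and leukocyte genes the sums were 24.5 in labelled L/ZSC against 37.5 in labelled SG, for 8 myoid genes 39.7 against 50.3, and for 10 endothelial genes 8.47 against 23.5. These sums lay far below the Sertoli sums. No red blood cell gene reached 5 FPKM.

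**Figure D4:**
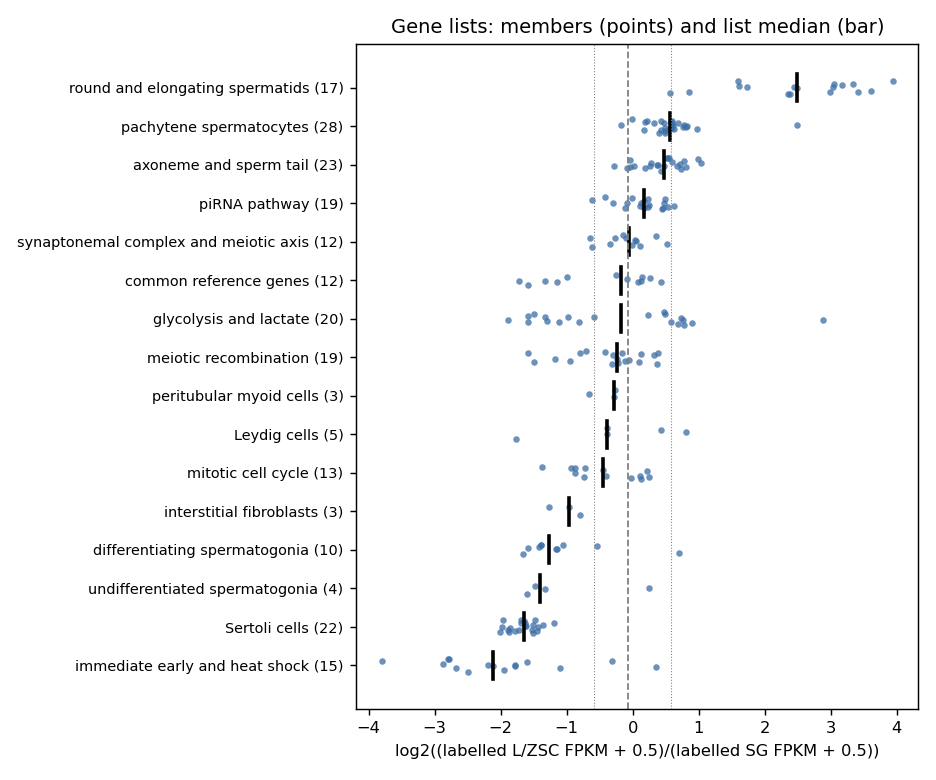
Log2 ratio of labelled L/ZSC over labelled SG (horizontal) for the genes of each list with at least 3 genes compared, with the number in parentheses, points for genes and bars for medians. The dashed line marks the median of all 9688 genes (-0.07) and dotted lines mark 1.5-fold, and medians run between -2.12 for immediate early and heat shock genes and 2.49 for spermatid genes.

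Between these ends, genes of the meiotic programme differed in steps. Of 28 pachytene genes, 14 were higher and none lower, with a median log2 ratio of 0.57, and all but Spag6 reached 5 FPKM in both columns. Ldhc was 1.60-fold higher in labelled L/ZSC. Slc2a3, a glucose transporter gene, was at 1749 FPKM in labelled L/ZSC against 1132 FPKM in labelled SG, and Meig1, needed for the sperm tail, at 1365 FPKM in labelled L/ZSC against 900.2 FPKM in labelled SG. Spag6, an axonemal protein gene, had the largest log2 ratio of the list, with 11.0 FPKM in labelled L/ZSC against 1.54 FPKM in labelled SG. Ccna1, a cyclin gene needed for male meiotic division, was at 86.5 FPKM in labelled L/ZSC against 43.7 FPKM in labelled SG. Both libraries thus held high levels of these genes, and the differences were below 2-fold for all but Spag6.

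Genes of the axoneme and sperm tail ran the same way, with 8 of 23 higher and none lower and a median log2 ratio of 0.47. Rsph1, a radial spoke gene, was at 1381 FPKM in labelled L/ZSC against 940.0 FPKM in labelled SG, within 1.5-fold. Dnaic2, a dynein intermediate chain gene, had the largest log2 ratio, with 35.6 FPKM in labelled L/ZSC against 17.0 FPKM in labelled SG. Genes of the piRNA pathway, which silences transposons with small RNAs, were nearly level, with 17 of 19 within 1.5-fold. Mael, the most abundant of them, was at 1013 FPKM in labelled L/ZSC against 747 FPKM in labelled SG, Gtsf1 was the 1 gene higher and Fkbp6 the 1 gene lower.

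Early meiotic genes, which would be looked for in leptotene and zygotene cells, were not higher in the library with that label. Of 12 synaptonemal complex and axis genes, none was higher, 2 were lower and the median log2 ratio was -0.05. Sycp3, a component of the axis, was at 222.9 FPKM in labelled L/ZSC against 223.3 FPKM in labelled SG, with 708.5 FPKM in labelled PlpSC. Sycp1, the transverse filament gene, was at 45.5 FPKM in labelled L/ZSC against 70.3 FPKM in labelled SG, with 214.5 FPKM in labelled PlpSC, and the cohesin gene Rec8 was the other lower member. Of 19 recombination genes, none was higher and 6 were lower, with a median of -0.23, but 5 of the 6 had passed 5 FPKM in labelled SG alone. Among the 13 that reached it in both columns, 1 (7.69%) was lower, against 17.2% of all such genes. Spo11, whose product makes the breaks, was at 77.4 FPKM in labelled L/ZSC against 60.0 FPKM in labelled SG. Tex11, an X-linked crossover gene, was at 3.18 FPKM in labelled L/ZSC against 9.84 FPKM in labelled SG. Labelled PlpSC held the highest value of 17 of the 22 recombination genes in the table.

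Many genes of the mitotic germline were lower, though several passed 5 FPKM in labelled SG alone. Of 10 differentiating spermatogonia genes, 9 were lower and 1 higher, with a median log2 ratio of -1.27, and 6 of them reached 5 FPKM in labelled SG alone. Stra8, which licenses entry into meiosis, was at 5.88 FPKM in labelled L/ZSC against 18.6 FPKM in labelled SG, with 47.1 FPKM in labelled PlpSC. The exception was Dmrtb1, which controls the switch between mitosis and meiosis, at 356 FPKM in labelled L/ZSC against 219 FPKM in labelled SG. Undifferentiated spermatogonia genes were low in both, with 4 of 18 at 5 FPKM or more. Only Id4 was abundant among them, at 87.2 FPKM in labelled L/ZSC against 73.1 FPKM in labelled SG, and the other 3, which were lower, had passed 5 FPKM in labelled SG alone. Of 13 mitotic cell cycle genes, 6 were lower and none higher, with Pcna at 249.7 FPKM in labelled L/ZSC against 214.6 FPKM in labelled SG and the helicase gene Mcm4 at 2.73 FPKM in labelled L/ZSC against 7.85 FPKM in labelled SG.

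Glycolytic genes went both ways, with 6 of 20 higher and 10 lower. The testis forms Ldhc, Pgk2 and Aldoart2, the muscle form Pgam2, the hexokinase gene Hk1 and the transporter gene Slc16a7 were higher, with Pgam2 at 954 FPKM in labelled L/ZSC against 575 FPKM in labelled SG and Aldoart2 at 9.54 FPKM in labelled L/ZSC against 0.852 FPKM in labelled SG. Ldhb, the heart form of lactate dehydrogenase, was 3.71-fold lower, at 58.8 FPKM in labelled L/ZSC against 218.5 FPKM in labelled SG. Gapdh was at 59.5 FPKM in labelled L/ZSC against 180 FPKM in labelled SG, a 3.02-fold difference in a gene often used as a reference. Of the 12 reference genes compared, 5 were lower and none higher. Nudcd3, which the study used as its reference, was at 26.2 FPKM in labelled L/ZSC against 24.7 FPKM in labelled SG. The study picked Nudcd3 for its similar levels in this same RNA sequencing, so its evenness here was fixed in advance and does not test that choice.

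The X chromosome stood apart from every autosome. Of 210 X-linked genes, 200 (95.2%) were lower in labelled L/ZSC, 8 were higher and 2 were within 1.5-fold, with a median log2 ratio of -1.56 and quartiles of -1.72 and -1.32. Of 9450 autosomal genes, 2391 (25.3%) were lower and 789 (8.35%) higher, and the medians of the 19 autosomes lay between -0.18 and 0.00. Among genes at 5 FPKM or more in both columns, 81 of 83 X-linked genes (97.6%) and 16.4% of autosomal genes were lower. A log2 ratio below -1 was found in 89.5% of X-linked and 14.6% of autosomal genes.

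**Figure D5:**
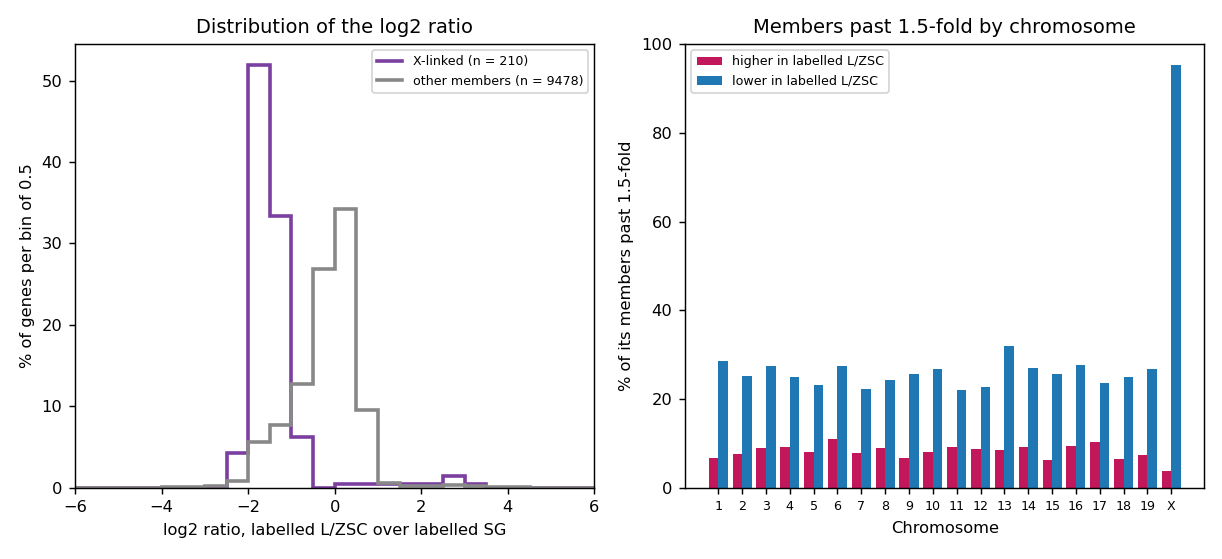
Left, share of X-linked genes (210) and other genes (9478) in each bin of 0.5 in the log2 ratio of labelled L/ZSC over labelled SG. Right, percentage of the genes of each chromosome that were over 1.5-fold higher or lower in labelled L/ZSC, where 95.2% of X-linked genes were lower and the autosomes lie between 22% and 31.9%.

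In levels, the median X-linked gene had 3.96 FPKM in labelled L/ZSC against 11.8 FPKM in labelled SG, with 21.0 FPKM in labelled PlpSC and 2.43 FPKM in labelled PaSC. The median autosomal gene had 19.7 FPKM in labelled L/ZSC against 22.6 FPKM in labelled SG. Of the 200 lower X-linked genes, 151 were lower still in labelled PaSC. The Sertoli markers moved the same way, and their part in the X-linked difference was not tested. Without the 3 X-linked genes that are on the Sertoli list, 197 of 207 were lower with the same median of -1.56. Leaving out only 3 genes could hardly move either value, so this does not test the part of Sertoli cells.

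The X-linked and paired genes in this and the next paragraph were named after their values were seen. Maged1, a widely expressed adaptor gene, was at 56.5 FPKM in labelled L/ZSC against 227.9 FPKM in labelled SG, and Hprt, the purine salvage gene, at 6.15 FPKM in labelled L/ZSC against 21.6 FPKM in labelled SG. Wnk3, a kinase gene, had the lowest log2 ratio on the chromosome, at 3.98 FPKM in labelled L/ZSC against 19.9 FPKM in labelled SG. The 8 higher genes were Akap4, Cypt1, Cypt3, 1700010D01Rik, Tmsb15a, Gm5941, Tsga8 and H2afb3, all of them highest in labelled PaSC. Of these, 7 had passed 5 FPKM in labelled L/ZSC alone, and only Tsga8 reached it in both columns. Akap4, the main fibrous sheath protein gene of the sperm tail, was at 5.95 FPKM in labelled L/ZSC against 0.284 FPKM in labelled SG, with 195 FPKM in labelled PaSC. On the Y chromosome, Ddx3y, Eif2s3y and Uba1y reached 5 FPKM and all 3 were lower.

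Several X-linked genes have autosomal copies that are known for their use in male germ cells, and in the 5 pairs looked at, Rps4x and Rps4l included, the X-linked gene was lower and its copy was not. Pgk1, a glycolytic kinase gene on X, was at 8.77 FPKM in labelled L/ZSC against 22.7 FPKM in labelled SG, while its copy Pgk2 on chromosome 17 was at 153 FPKM in labelled L/ZSC against 89.7 FPKM in labelled SG. Rpl10, a ribosomal protein gene on X, was at 32.4 FPKM in labelled L/ZSC against 91.4 FPKM in labelled SG, while its copy Rpl10l on chromosome 12 was at 386 FPKM in labelled L/ZSC against 338 FPKM in labelled SG. In both pairs the copy had the higher FPKM in labelled L/ZSC. Rpl39 was at 59.0 FPKM in labelled L/ZSC against 119.5 FPKM in labelled SG, and Rpl39l at 619 FPKM in labelled L/ZSC against 446 FPKM in labelled SG. Pdha1, below 5 FPKM in both, had a log2 ratio of -1.30 and Pdha2 one of 0.33. Ribosomal protein genes as a class were nearly level, with 82 genes at a median log2 ratio of 0.06. All 4 X-linked ones, Rpl10, Rps4x, Rpl39 and Rpl36a, were lower, as was 1 of the other 78, Rps27. How alike the copies in these pairs are was not measured. Where they are alike, reads can be divided differently between them, so single values within a pair are uncertain.

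At the very ends of the ranking stood genes with near-identical copies. Eif3j1, a translation initiation factor gene with the highest log2 ratio of all (5.24), was at 19.3 FPKM in labelled L/ZSC against 0.0219 FPKM in labelled SG, and Eif3j2, with the lowest (-5.61), at 0.0286 FPKM in labelled L/ZSC against 25.4 FPKM in labelled SG. Their transcripts were 99.4% identical over 2379 aligned bases. Summed, the pair was at 19.3 FPKM in labelled L/ZSC against 25.4 FPKM in labelled SG, a ratio of 0.760 and within 1.5-fold. Likewise Amd1, a polyamine synthesis gene, was at 12.5 FPKM in labelled L/ZSC against 0.165 FPKM in labelled SG, whereas its sum with its near copy Amd2 was 70.6 FPKM in labelled L/ZSC against 82.7 FPKM in labelled SG. How reads were assigned within these pairs was not tested, and their ranks are uncertain. Gm21586, the third from the bottom, was listed at 0 in labelled L/ZSC and at 7.80 FPKM in labelled SG.

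Clustered histone genes, most of which serve DNA replication, were lower for the most part. Of 60 clustered histone genes, 35 (58.3%) were lower and 6 higher, with a median log2 ratio of -0.74. Hist1h4c was the most abundant of those that were higher, at 3299 FPKM in labelled L/ZSC against 1638 FPKM in labelled SG, with 11741 FPKM in labelled PlpSC. Many of these genes are near-identical in sequence, so counts of single genes are uncertain.

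Long noncoding RNAs leaned the other way from protein-coding genes. Of 301 lncRNA genes by RefSeq type, 114 (37.9%) were higher and 21 (6.98%) lower, with a median log2 ratio of 0.43, whereas of 9297 protein-coding genes 7.21% were higher and 27.6% lower, with a median of -0.09. Malat1, a nuclear lncRNA present in most cell types, was 2.74-fold lower, at 179 FPKM in labelled L/ZSC against 489 FPKM in labelled SG, with 703 FPKM in labelled PlpSC. H19, an imprinted lncRNA, stayed below 5 FPKM in both libraries. Genes known only by a RIKEN clone name, coding or not, were 161 higher and 53 lower of 473. Some lncRNA and RIKEN clone genes passed 5 FPKM in labelled L/ZSC alone or in labelled SG alone, and so had to be lower in the other column. How many did so was not counted, so the part of the threshold in these shares is not known.

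Across the 4 libraries, the direction of a difference limits where a gene can peak, since a gene higher in labelled L/ZSC cannot peak in labelled SG, nor a lower one in labelled L/ZSC. Of the 802 higher genes, 622 (77.6%) had their highest value in labelled PaSC, and a further 172 (21.4%) peaked in labelled L/ZSC. Of the 2598 lower genes, 1679 (64.6%) peaked in labelled PlpSC and 857 (33%) in labelled SG. Over all 9688 genes, the library labelled SG held the peak of 18.9%, labelled PlpSC that of 36.2%, labelled L/ZSC that of 22.4% and labelled PaSC that of 22.5%. The 107 genes with a log2 ratio above 2 had a median of 9.31 FPKM in labelled L/ZSC against 0.798 FPKM in labelled SG, with 0.324 FPKM in labelled PlpSC and 177 FPKM in labelled PaSC. The 668 higher genes with a log2 ratio under 1.5 were abundant in both libraries, with medians of 43.5 FPKM in labelled L/ZSC against 25.8 FPKM in labelled SG, and 73.7 FPKM in labelled PaSC. The lower genes had medians of 5.33 FPKM in labelled L/ZSC against 12.8 FPKM in labelled SG, with 17.7 FPKM in labelled PlpSC and 3.88 FPKM in labelled PaSC.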

How the data were processed

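RNA was measured in 4 libraries, 1 per stage, and the columns of the 2 libraries labelled L/ZSC and SG were compared. According to the paper, the authors depleted ribosomal RNA, made directional libraries, aligned reads to mm10 with TopHat, then ran Cuffdiff on RefSeq gene models. Their versions were not given in the sources used here. Per stage, 1 column of FPKM was deposited. No counts were used, library depth is unknown, and whether Cuffdiff scaled the columns to each other is not given.

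Calculations used numpy 2.4.6 and pandas 2.3.3 under Python 3.11.15, and figures used matplotlib 3.10.9. The calling of genes at 1.5-fold was tested on simulated data, and the other statistics were not. A gene was called higher or lower when its plain FPKM ratio exceeded 1.5, the fold the study's methods use. The log2 ratio had 0.5 FPKM added to both values, and so understates differences of low genes. A value listed at 0 can be a failed estimate.

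The genes compared and the gene lists were chosen with earlier results of these data known. Genes named were the 25 at each end of the ranking, the 10 highest of each column, for each list the 4 members highest in either column and the 2 with the largest log2 ratio in size, and the genes the study names. Any other gene, such as a pair partner, an X-linked example, a gene next to the threshold or a further list member, was named after its values were seen. Chromosomes, gene types and promoters came from RefSeq (GRCm38.p6), where 9259 genes were found under their symbol and 405 under a former one, leaving 24 without a match. Near-identical transcripts were aligned from GENCODE M21.

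Alternatives were pseudocounts of 0.1 and 1, filters at 1 and 20 FPKM, a threshold of 2-fold, 3 scalings between columns, small RNA symbols kept, and X-linked genes or genes listed at 0 left out.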

Additional observations from a re-analysis of the deposited data

How the results depend on the processing

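A count was taken to hold when it stayed within 1.5 times its value, and a median when it moved by less than 1.5-fold. Of 194 recomputed values, 187 held and none past 1.5-fold changed direction. At a 2-fold threshold 213 genes were higher and 1669 lower. With a filter at 1 FPKM these were 1360 higher and 4473 lower, and at 20 FPKM 462 higher and 794 lower. The filter also changes how many genes are compared, so these counts cannot be read as a change in share. Scaling both columns to the same sum moved the log2 ratio of all genes by -0.02, scaling by the median ratio by 0.08 (1095 higher and 2398 lower), and scaling to the same sum without Rpph1, chosen after seeing the data, by -0.15, which left 442 genes higher and 3096 lower. Over all settings run, the X-linked median stayed between -1.69 and -1.29, the Sertoli median between -1.79 and -1.57, and the spermatid median between 2.35 and 2.99. Medians near 0 changed sign between settings: recombination genes lay between -0.38 and 0.13, mitotic cell cycle genes between -0.59 and 0.12, and glycolytic genes between -0.59 and 0.35. So did the median of all genes compared, between -0.22 and 0.10, and that of synaptonemal complex and axis genes, between -0.20 and 0.03. Of the 25 genes at the upper end, 20 were shared with a pseudocount of 0.1 and 22 with 1, and at the lower end 21 and 23. Without X-linked genes or without genes listed at 0, both chosen after seeing the data, 794 and 800 genes were higher and 2398 and 2597 lower. No paired analysis was possible because each stage had 1 library, and for the same reason no library could be left out. Depth is unknown, so the precision of genes near 5 FPKM cannot be given.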
